A study of Mus musculus with 18 samples.

Results

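The genes described here were 7 mouse genes of corticosteroid signalling: the receptor genes Nr3c1 and Nr3c2, the hormone-responsive genes Fkbp5, Tsc22d3 and Sgk1, and the hormone-converting enzyme genes Hsd11b1 and Hsd11b2. They were chosen by name, out of 21887 protein-coding genes, and a site was counted for a gene when the centre of a BMAL1 peak lay inside the gene or within 10 kb of either end. Of the 11366 peaks in the lists of liver, kidney and heart, 17 met this rule, 8 in liver, 4 in kidney and 5 in heart. They formed 13 separate regions at 5 of the 7 genes.

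BMAL1 pairs with CLOCK to bind E-box sequences and drive the daily transcription cycle. ChIP-seq, in which DNA bound by a protein is precipitated with an antibody (here from chicken, against mouse BMAL1) and sequenced, was used to locate it in wild-type C57BL/6 mice aged 3 to 6 months. The mice were fed freely in days of 12 h light and 12 h dark, and liver, kidney and heart were taken from the same animals at 6 h into the light phase (ZT06). A total of 18 libraries, 3 ChIP and 3 input libraries for each tissue, were made. No mutant or treated group was part of the series, and the groups differed in tissue only. Each tissue is described by 1 peak list, made by the authors from all its ChIP and input libraries pooled, so no value below has a replicate, an error between animals or a test of a difference between tissues. Read depth is unknown. A peak list measures neither RNA nor cell markers, so the tissue labels could not be checked against markers. The score of a peak is the authors' own whole number, of unstated scale, and is used here to rank peaks within their list (rank 1 has the highest score, ties share the better rank). Liver scores ran from 17 to 389 with a median of 40, kidney scores from 14 to 304 with a median of 28, and heart scores from 16 to 375 with a median of 25. The source label of all 3 heart input libraries names kidney, while their titles and tissue labels name heart. Whether the heart list rests on heart input was not tested.

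Corticosteroids are adrenal hormones whose release follows the time of day. They enter cells and bind the glucocorticoid receptor (Nr3c1) or the mineralocorticoid receptor (Nr3c2), which are held ready by heat shock chaperones and, with hormone bound, act on genes in the nucleus. Glucocorticoids raise glucose production in liver, and aldosterone raises sodium uptake in the distal nephron of the kidney. The enzyme encoded by Hsd11b1 regenerates active glucocorticoid inside the cell, and the one encoded by Hsd11b2 inactivates it and so leaves the mineralocorticoid receptor to aldosterone.

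The sequences below are those where a peak, or the lack of one, could be set beside the bases of a start site. Of the 7 genes, 5 had a promoter window in the RefSeq table used (build GRCm38.p6, 250 bases before to 50 bases after a start), with 12 windows in all. Fkbp5 was the 1 gene of these 5 with a peak centre in such a window. Shown first is the part of its liver peak that lies before the start (chr17:28486150-28486353, minus strand). Shown next, for comparison, is the stretch common to the kidney and heart peaks at Dusp1, a glucocorticoid-responsive phosphatase gene of the wider list described further on (chr17:26508516-26508677, minus strand). Shown last is the first part of a window of Sgk1 that held no peak in any list (chr10:21993640-21993720, plus strand). Capitals mark the E-box CACGTG and, in Sgk1, the full glucocorticoid response element, which is the half-site AGAACA followed, after 3 bases, by its reverse complement.
Fkbp5: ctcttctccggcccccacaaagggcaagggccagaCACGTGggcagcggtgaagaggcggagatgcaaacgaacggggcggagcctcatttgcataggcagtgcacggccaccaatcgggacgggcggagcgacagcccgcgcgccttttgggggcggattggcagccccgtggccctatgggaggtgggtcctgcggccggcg
Dusp1: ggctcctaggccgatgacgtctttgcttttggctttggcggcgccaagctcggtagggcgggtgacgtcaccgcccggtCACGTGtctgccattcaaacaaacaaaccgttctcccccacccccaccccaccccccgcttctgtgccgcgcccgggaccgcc
Sgk1: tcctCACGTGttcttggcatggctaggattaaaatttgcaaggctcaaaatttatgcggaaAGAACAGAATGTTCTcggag

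The counts of genes were read against all protein-coding genes. A liver site lay at 5 of the 7 genes (Nr3c1, Nr3c2, Fkbp5, Tsc22d3 and Sgk1), where 18.1% of all coding genes had one. A kidney site lay at 3 of the 7 (Nr3c1, Nr3c2 and Fkbp5), against 18.0% of coding genes. A heart site lay at 4 of the 7 (Nr3c1, Nr3c2, Fkbp5 and Tsc22d3), against 11.5%. At least 1 list had a site at 5 of the 7, against 30.7% of coding genes. The receptor genes and Fkbp5 had a site in each list, a state found at 4.35% of coding genes. Long genes have wider windows, and 3 of the members span over 100 kb. In that class 27.7% of coding genes had a liver site, 26.8% a kidney site and 23.7% a heart site. Fkbp5 and Tsc22d3 belong to the class of 50 to 100 kb, with 24.3, 23.6 and 18.0% for liver, kidney and heart. A site in each list was found at 7.66% of coding genes over 100 kb and at 5.84% of those of 50 to 100 kb. For a site in at least 1 list the shares were 48.4 and 42.9%. The members were chosen by name with earlier results known, so the counts are a description.

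**Figure D1:**
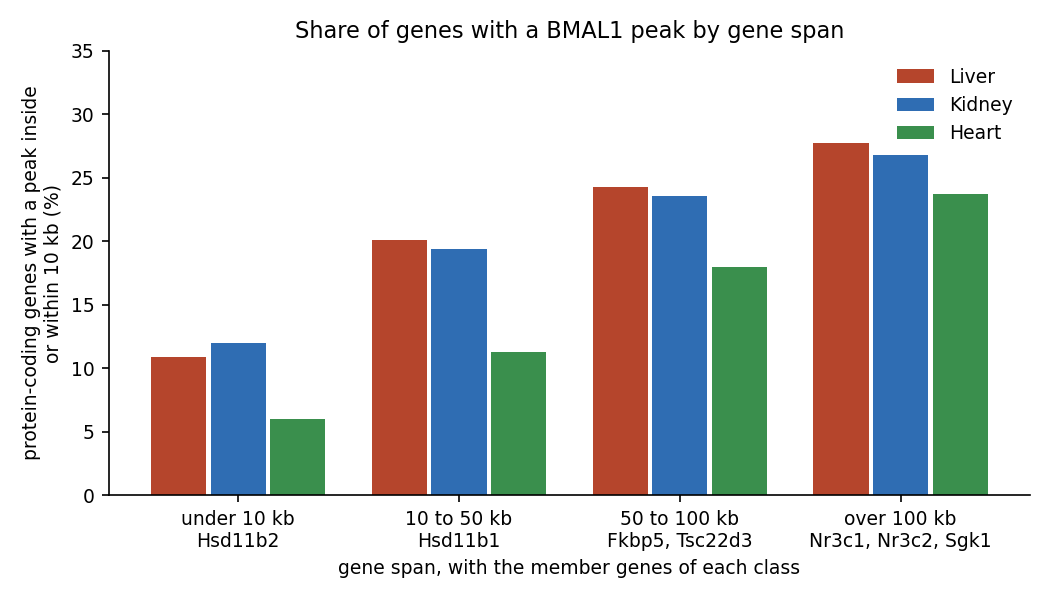
Share of protein-coding genes (vertical axis, %) with a peak centre inside the gene or within 10 kb, for 4 classes of gene span and for the liver, kidney and heart lists (bars); the member genes of each class are named below it. In each list the share is lowest for genes under 10 kb (10.9% in liver, 12.0% in kidney, 5.99% in heart) and highest for genes over 100 kb.

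The sites were spread over the lists. In the upper 50% by score lay 4 of the 8 liver sites, 3 of the 4 kidney sites and 2 of the 5 heart sites. The median site lay at 46.0% of the way down the liver list, at 38.9% in kidney and at 64.5% in heart, where a list's own middle is 50%. One liver site and 1 heart site, both at Nr3c2, reached the top 10% of their list, and no kidney site did. Of the 13 regions, 10 had a peak in 1 tissue, 2 in 2 tissues and 1 in all 3. Over all 9005 regions the shares were 79.5, 14.7 and 5.76%, so the split of the members was near that of the whole series.

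**Figure D2:**
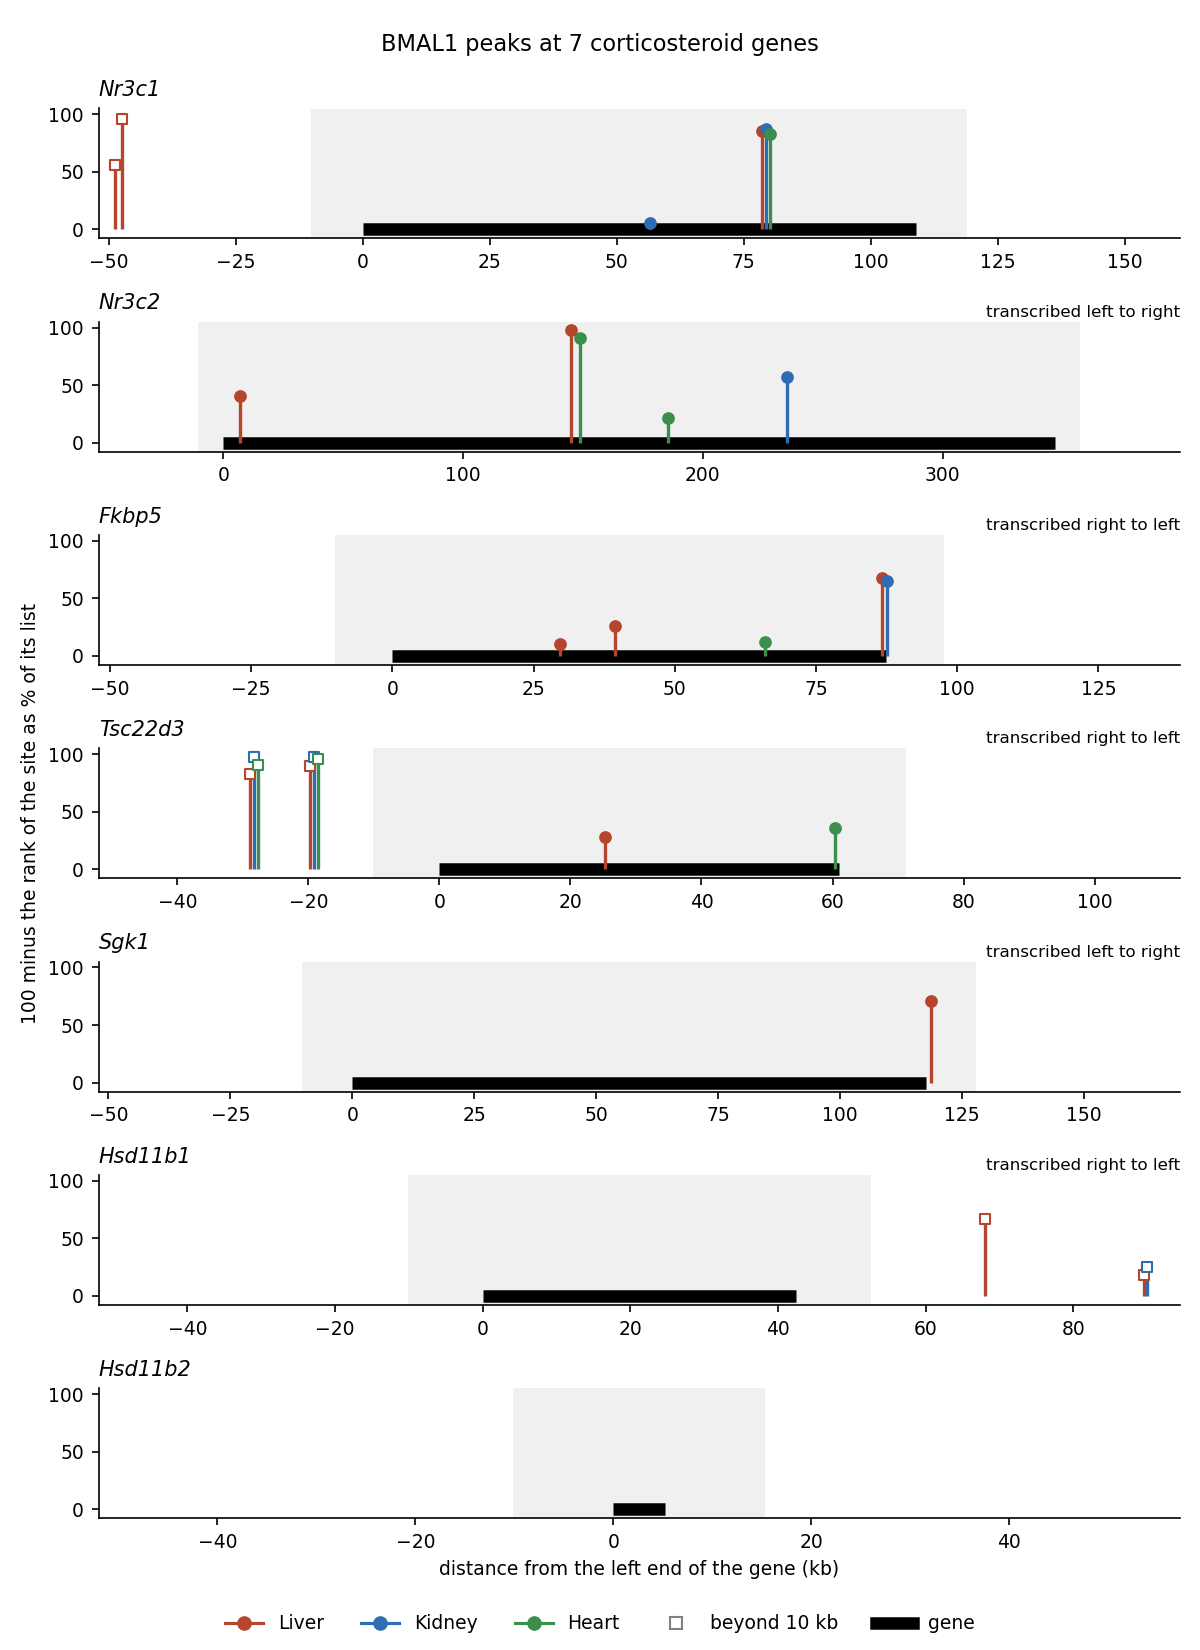
Peaks at each of the 7 genes: the horizontal axis is the distance from the left end of the gene in kb, the vertical axis is 100 minus the rank as % of the list, so that 100 is the best rank, and colours stand for the tissue. The bar is the gene, the grey band reaches 10 kb beyond it, open squares lie outside that band, and symbols of different tissues at a shared site are moved slightly apart; the Nr3c1 site has 3 tissues, the tall Nr3c2 site has liver and heart, and the tall sites near Tsc22d3 lie outside the band.

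Nr3c1, the gene of the glucocorticoid receptor (chromosome 18, 39410545 to 39519421), held the 1 region with a peak in all 3 lists. It lay inside the gene, 29.5 kb from its right end. The liver peak (39489805 to 39490046) scored 84 and ranked 680 of 4813. The kidney peak (39489842 to 39490029) scored 64 and ranked 528 of 4034, and the heart peak (39489828 to 39490025) scored 54 and ranked 428 of 2519. These ranks fell at 14.1, 13.1 and 17.0% of their lists, so the site stood at a similar depth in each. The peak centres of liver and heart were 1 bp apart and those of liver and kidney 10 bp apart, where the median over all regions shared by these pairs was 19 bp for both. Among peaks of regions common to all tissues, the site was of middle to low score: it was placed 313 of 519 in liver, 312 of 519 in kidney and 328 of 519 in heart. A region common to all tissues, counted through its liver peak, lay at 3.09% of coding genes.

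A further kidney peak inside Nr3c1 (39467052 to 39467239) scored 14, the lowest score of that list, as did 233 kidney peaks in all. Beyond the window, 46.5 kb to the left of Nr3c1, a liver peak scored 140 (rank 189), but it lay inside the neighbouring gene Arhgap26. The genes whose best sites ranked most like those of Nr3c1 were Supv3l1, Arfgap3 and Kdm2a, at distances of 2.71, 3.06 and 3.22 percentage points of the list over the 3 tissues, among 952 other coding genes with a site in every list.

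Nr3c2, the gene of the mineralocorticoid receptor (chromosome 8, 76898083 to 77245012), held the best-ranked site within 10 kb of any of the 7 genes in liver and in heart. The site lay inside the gene, 143 kb after the listed start. The liver peak (77044900 to 77045141) scored 162 and ranked 106 of 4813. The heart peak (77044923 to 77045120) scored 77 and ranked 237 of 2519, with its centre 1 bp from that of the liver peak. These ranks are the top 2.20% in liver and the top 9.41% in heart. The kidney list had no peak there, and its nearest peak lay 88.1 kb away.

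Regions found in liver and heart and not in kidney were few, 135 of 9005 regions, or 1.50%. Within that class the Nr3c2 site had the highest heart score, and its liver score was placed 2 of 135; the median scores of the class were 35 in heart and 50 in liver. Among the 107 liver peaks that scored at least as high, 10 had no kidney partner (9.35%), against 69.3% in the whole liver list. Among the 246 heart peaks that scored at least as high, 9 had none (3.66%), against 70.3% in the whole heart list. The Nr3c2 site is itself included in both counts. Of the peaks without a kidney partner, 2 in liver and 1 in heart belonged to regions shared by liver and heart. A peak missing from a list is a call against an unknown threshold and depth, and the kidney signal at this position was not used here, so these counts do not measure how much lower the kidney signal was.

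The other 3 sites of Nr3c2 were each in 1 tissue and weaker. A liver peak 4.38 kb after the listed start (76906587 to 76906828) scored 33 and ranked 2869. The kidney peak (77133071 to 77133258) scored 31 and ranked 1729 of 4034, at 42.9% of its list, and lay 231 kb after the start. A second heart peak (77081546 to 77081743) scored 17, next to the lowest heart score of 16. The 3 genes with the most similar ranks were Cecr2, Sipa1l2 and Mgll, at 7.28, 12.1 and 13.5 percentage points, farther than the nearest matches of Nr3c1. Mgll, a monoglyceride lipase gene, had its best liver site at 6.52% of that list, its best kidney site at 55.5% and its best heart site at 11.6%.

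**Figure D3:**
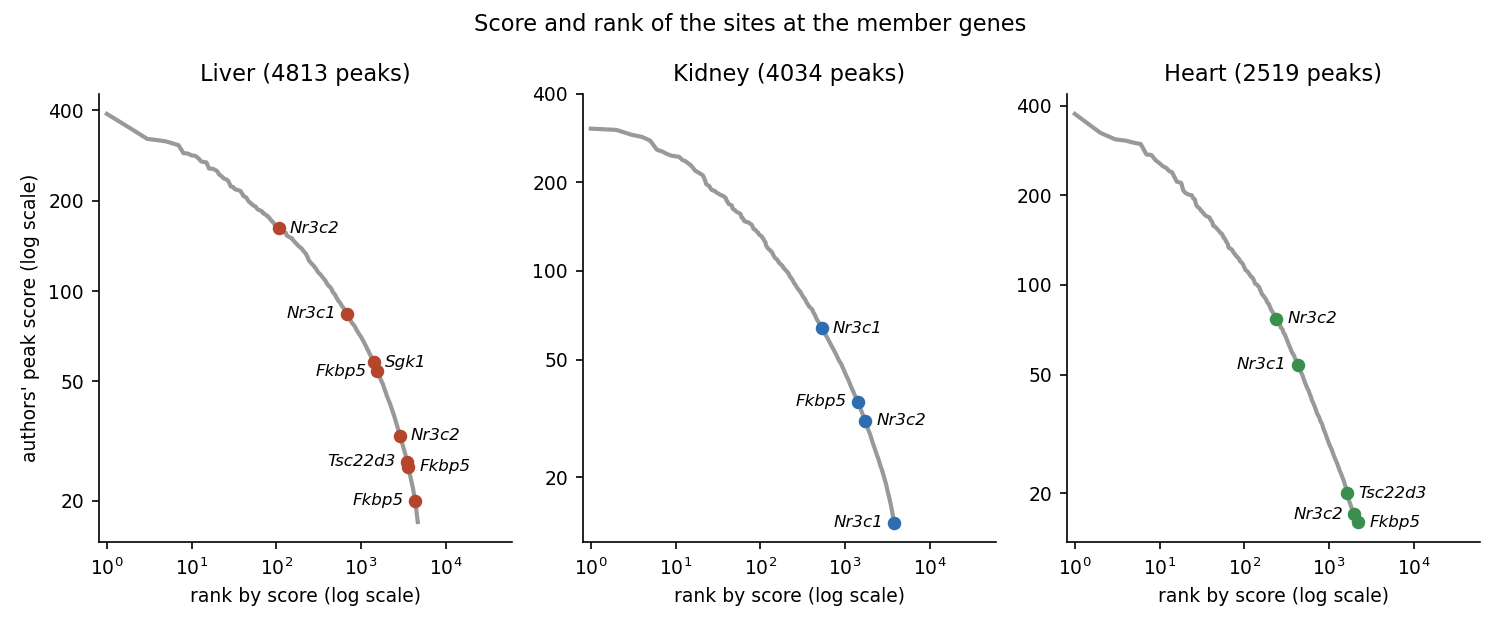
Score of every peak (grey line, vertical axis, log scale) against its rank by score (horizontal axis, log scale) in the liver, kidney and heart lists, with the sites at the member genes as points. In liver and heart the leading point is Nr3c2 (scores 162 and 77), in kidney it is Nr3c1 (score 64), and the other points follow farther down each curve.

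Fkbp5 encodes a co-chaperone that lowers the affinity of the glucocorticoid receptor for hormone, and it is itself switched on by that receptor. The gene (chromosome 17, 28398753 to 28486149, minus strand) was the 1 member with a peak at a listed start. The liver peak (28486112 to 28486353) had its centre 83.5 bp before the start, scored 54 and ranked 1557 of 4813. The kidney peak (28486146 to 28486333) had its centre 90.5 bp before the start, scored 36 and ranked 1408 of 4034. These are 32.3 and 34.9% of the lists, close to the middle of the 960 regions shared by liver and kidney alone, where the site was placed 512 by liver score and 460 by kidney score. No heart peak lay there, and the nearest, inside the gene, was 22.3 kb from the start.

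The promoter window of Fkbp5 held 1 CACGTG, printed above, centred 167 bases before the start. CACGTG occurred in 7.15% of the 32851 promoter windows, in 45.4% of the 791 windows with a liver peak centre and in 41.4% of the 1077 windows with a kidney peak centre. At Fkbp5 it lay 83 bp from the centre of the liver peak and 76 bp from that of the kidney peak. Over the windows with both a peak centre and a CACGTG, the median distance from centre to nearest E-box was 16 bp in liver (359 windows) and 20.5 bp in kidney (446 windows). A distance as long as that at Fkbp5, or longer, occurred in 28 of the liver windows (7.80%) and 46 of the kidney windows (10.3%). The E-box of Dusp1 lay 14 bp from the kidney centre and 17 bp from the heart centre. The Fkbp5 window held none of 3 E-box variants and no glucocorticoid half-site on either strand. Of the variants, CACGTT occurred in 4.68% of all windows, CACGCG in 9.27% and CATGTG in 14.2%. In windows with a liver peak centre their shares were 10.1, 35.8 and 12.9%, and with a kidney peak centre 10.0, 37.4 and 10.8%. The half-site AGAACA, searched on both strands like the rest, occurred in 19.0% of all windows. A pair of E-boxes separated by 6 or 7 bases (CACGTG with a second CACGTG or with the first variant, in any order and orientation) occurred in 5 of all windows and in none of the member windows.

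The 3 other sites at Fkbp5 lay inside the gene, each in 1 tissue and low in its list. The liver peaks scored 20 (28429043 to 28429284, rank 4329) and 26 (28438822 to 28439063, rank 3576). The heart peak (28463799 to 28463996) scored 16, the lowest heart score, as did 305 heart peaks in all. The genes most like Fkbp5 over the 3 lists were Aptx, Apbb2 and Ppp3ca, at 11.2, 12.5 and 12.9 percentage points. The heart rank of Fkbp5 used here was that of the tied lowest score, at 87.9% of the list, and Aptx had the same rank. The liver and kidney ranks came from the start site peaks.

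Tsc22d3 encodes the glucocorticoid-induced leucine zipper protein, which carries part of the anti-inflammatory action of the hormone. Within 10 kb of the gene (chromosome X, 140539528 to 140600522, minus strand) lay 1 liver peak and 1 heart peak, at different places. The heart peak (140599192 to 140599389) lay 1.23 kb after the outermost listed start, scored 20 and ranked 1624 of 2519. The liver peak (140565280 to 140565521) lay farther inside, 35.1 kb from the outermost start, scored 27 and ranked 3458 of 4813. No kidney peak met the rule.

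The strong sites near Tsc22d3 were outside the window, on the side where transcription ends. A region 19.1 kb beyond the gene had a peak in all 3 lists. Its liver peak (140520261 to 140520502) scored 95 and ranked 512, its kidney peak (140520274 to 140520461) scored 136 and ranked 91, and its heart peak (140520294 to 140520491) scored 110 and ranked 111. The latter 2 ranks are the top 2.26% in kidney and the top 4.41% in heart. A second common region 28.3 kb beyond the gene scored 77 in liver (rank 821), 138 in kidney (rank 87) and 77 in heart (rank 237). Tsc22d3 was the nearest protein-coding gene to both. The site just inside the 10 kb limit was that of Sgk1, at 1.92 kb, and the first outside it was the region at 19.1 kb, so no site lay close to the limit. Widening the window to 25 kb added this region and gave 2 regions common to all tissues among the members in place of 1.

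Sgk1 encodes a kinase induced by glucocorticoids and aldosterone that raises the number of sodium channels at the cell surface. The gene (chromosome 10, 21882184 to 21999903, plus strand) had 1 site, found in liver only, 1.92 kb beyond the end of the gene. The peak (22001703 to 22001944) scored 58, ranked 1408 of 4813 (29.3%) and was placed 465 of the 3199 liver-only peaks, whose median score was 32. The nearest kidney peak was 308 kb from the closest listed start. Sgk1 had 6 listed starts, and no list had a peak centre in any of their windows. One of these windows, printed above, held a CACGTG centred 244 bases before its start and the full glucocorticoid response element centred 182 bases before it. The window held 3 half-sites over both strands: the pair in the element and a TGTTCT, not marked above, that shared bases with the CACGTG. The full element occurred in 3 of all 32851 promoter windows, while CACGTG occurred in 2349, of which 359 held a liver peak centre.

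Hsd11b1 (chromosome 1, 193221640 to 193264045) and Hsd11b2 (chromosome 8, 105518746 to 105523988) had no peak inside or within 10 kb in any list, the state of 69.3% of coding genes. For Hsd11b1, the nearest peak was a liver peak 26.2 kb away (193290099 to 193290340, score 53, rank 1606), and the coding gene nearest to it was Lamb3, a laminin gene. A region shared by liver and kidney 47.7 kb away lay inside Lamb3 and scored 23 in liver and 19 in kidney. No list had a peak within 50 kb of Hsd11b2. Hsd11b2 spans 5.24 kb and so had the narrowest window of the 7, in the class where 18.6% of coding genes had a peak in any list. The only promoter window listed for Hsd11b1, with its start at 193242360 inside the gene span, held no CACGTG and none of the 3 variants. Hsd11b1 lies on the minus strand. The outer end of its span, at 193264045, had no listed window and was not searched.

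A wider list of 61 genes of corticosteroid handling and response was described in the same way. A site lay at 31 of the 61 in liver (50.8%), at 25 in kidney (41.0%) and at 14 in heart (23.0%), against the 18.1, 18.0 and 11.5% of all coding genes. At 22 of the 61 (36.1%) no list had a site, against 69.3% of coding genes. The list was drawn up with earlier results of these data known and holds known clock genes such as Per1, so its shares are no independent evidence, and no test was made.

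Among 13 chaperone and coregulator genes, 5 had a liver site, 5 a kidney site and 3 a heart site, and none had a region common to all tissues. Against 18.1, 18.0 and 11.5% of all coding genes, the site counts were 38.5, 38.5 and 23.1% of the group. Fkbp4 encodes the co-chaperone that competes with the product of Fkbp5 on the receptor complex. It was the 1 gene of this group in the top 10% of a list, with a liver peak inside the gene that scored 116 and ranked 308; its kidney peak at the same region scored 50 (rank 838). At the start of Fkbp4 lay a further region, with a liver peak of score 48 and a heart peak of score 45 (rank 554) and no CACGTG in the window. Counting only peak centres within a promoter window, Fkbp5 had a start site peak in liver and kidney, and Fkbp4 in liver and heart. The Fkbp4 kidney peak (128437891 to 128438078) lay outside that window, in a gene whose listed start is at 128438656.

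Of 11 genes of steroid supply and clearance, 6 had a liver site, 3 a kidney site and 1 a heart site. Against 18.1, 18.0 and 11.5% of all coding genes, these were 54.5, 27.3 and 9.09% of the group. Srd5a2, a steroid reductase gene, was the 1 with a common region, with scores of 81 in liver, 75 in kidney (rank 392, in the top 10%) and 31 in heart (rank 932). H6pd, whose product supplies the cofactor that the Hsd11b1 enzyme uses, had liver and kidney peaks at different places, with best scores of 40 (rank 2345) and 23 (rank 2474).

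Of 24 genes known as glucocorticoid-responsive, 14 had a liver site, 12 a kidney site and 5 a heart site. Against 18.1, 18.0 and 11.5% of all coding genes, these were 58.3, 50 and 20.8% of the group. A common region lay at 3 of the 24 genes, against 3.09% of coding genes. These were also the 3 with a site in the top 10% of a list. Mt1 and Mt2 each counted, here and in the wider list, through the same liver peak (score 31) and the same best kidney peak (score 29). Per1, a clock repressor, had its best site at rank 4 in liver, 7 in kidney and 9 in heart. Klf9, a repressor of the Krüppel-like family, had its best site at rank 5, 13 and 46, with scores of 315, 236 and 156. Angptl4, which encodes an inhibitor of lipoprotein lipase, scored 118 in liver (rank 296), 98 in kidney (rank 216) and 101 in heart (rank 134). The best ranks at Nr3c2 in liver and at Nr3c1 in kidney, 106 and 528, were below those of Per1 and Klf9 in the same lists. Dusp1 had no liver peak; at its start the kidney peak scored 38 (rank 1295) and the heart peak 53 (rank 442).

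Of 13 genes of aldosterone-responsive sodium transport, 6 had a liver site, 5 a kidney site and 5 a heart site. Against 18.1, 18.0 and 11.5% of all coding genes, these were 46.2, 38.5 and 38.5% of the group. Usp2, which encodes a ubiquitin protease, was the 1 with a common region and a site in the top 10%. Its best scores were 161 in liver (rank 108), 147 in kidney (rank 67) and 101 in heart (rank 134). The best liver and heart peaks overlapped (44085923 to 44086164 in liver), while the best kidney peak lay elsewhere (44084764 to 44084951). Each of these peaks had partners in all 3 lists. Scnn1a, the alpha subunit gene of the epithelial sodium channel that the Sgk1 kinase acts on, had 1 liver peak (score 55, rank 1522) and no kidney peak. Scnn1b and Scnn1g, the other subunit genes, had no peak in any list. The group's 5 genes with a kidney site included Atp1b1 (best score 53, rank 758) and Nedd4l (best score 37, rank 1349), which spans 333 kb. Promoter windows were listed for 46 of the 61 genes. A peak centre lay in a window of 11 of them, and the window also held a CACGTG at 3, Per1, Dusp1 and Cnksr3. Of the 17492 coding genes with a listed window, 1314 (7.51%) had a peak centre in one, and in 492 of these (37.4%) that window held a CACGTG.

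**Figure D4:**
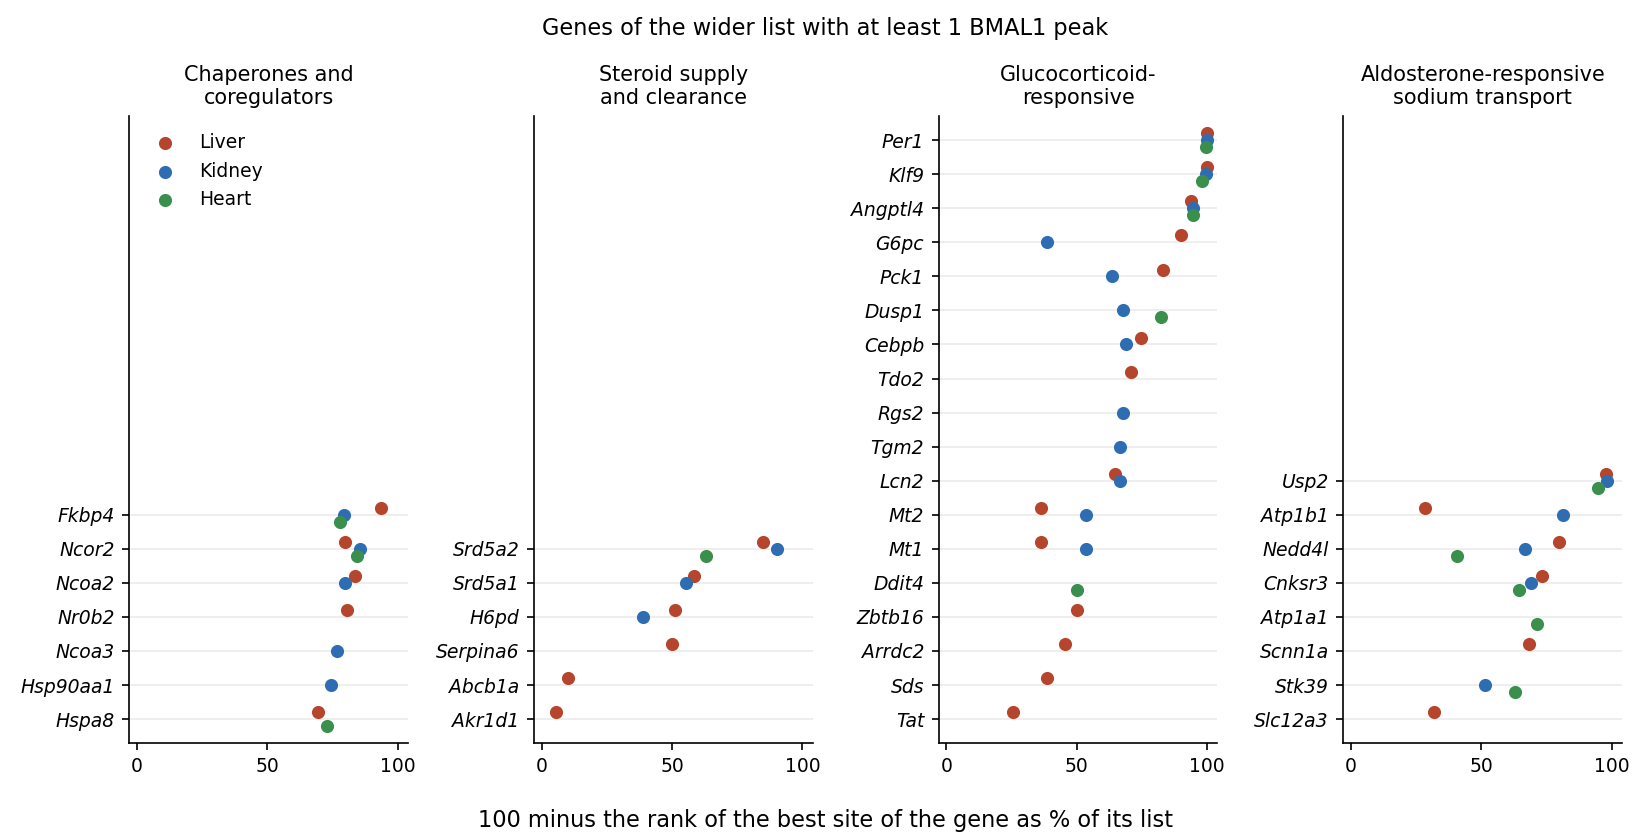
Best site of each gene of the wider list that had at least 1 peak, by group: the horizontal axis is 100 minus the rank of the best site as % of its list, and colours stand for liver, kidney and heart. Per1, Klf9, Angptl4 and Usp2 have points from all 3 lists near 100, while most other genes have points from 1 or 2 lists.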

How the data were processed

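BMAL1 ChIP-seq peak lists of mouse liver, kidney and heart were used, 1 per tissue. Per the labels, the authors pooled the ChIP and input libraries of each tissue to make its list. The submitters' processing notes name Bowtie2, SAMtools, HOMER and the build mm10; no source used here gives versions, parameters or filters. The deposited score per peak has no stated scale and was ranked within a list only. Pooling before peak calling left no spread between animals and no depth per library, so no test was made.

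Gene spans came from a RefSeq table of GRCm38.p6, the same build, and start sites and strands from a RefSeq table of promoter windows. Where windows of opposite strands overlapped by at least 100 bases, 1667 of 1667 pairs were identical after reverse complementing. Promoter windows were matched by symbol for 5 of the 7 members. Peaks of different lists with an overlap of 1 bp or more were merged into 1 region and called shared. Coordinates count from 1.

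Likeness was the Euclidean distance between best ranks, as percent of the list, over 3 tissues, for genes with a site in every list. Named were the 7 members whatever their values, and the wider list's genes with a common region or a top 10% site. The 3 genes most like each member with a site in every list were named too. Dusp1, Fkbp4, H6pd, Cnksr3, Stk39, Mt1, Mt2, Atp1b1, Nedd4l and the Scnn1 genes were added after their values were seen. The members and lists were chosen with earlier results of these data known. Assignment and merging were checked on simulated peaks. Analysis used Python 3.11.15, numpy 2.4.6 and pandas 2.3.3. Alternatives changed the window, the peak threshold, the assignment and the overlap rule.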

Additional observations from a re-analysis of the deposited data

How the results depend on the processing

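Under 10 alternatives, 54 of 68 recomputed counts of sites, genes and regions stayed within 1.5 times the reported value. The 14 that moved did so under the 25 kb window or under the cuts of the lists by score. A window of 5 kb, any base of the peak in place of its centre, the nearest coding gene only, an overlap of 50% of the shorter peak, and centres within 1000 bp left every count recomputed under them as it was. No site lay 5 to 10 kb from a member, so the 5 kb window could not change a count. Sites inside the gene only gave 6 sites at 4 genes in liver, 3 sites at 2 genes in kidney and 9 regions in 1 tissue. The Fkbp5 start site and the Sgk1 site lie outside the genes, and the heart counts did not change. Under that rule 10.2% of coding genes had a liver site, 9.65% a kidney site and 6.83% a heart site. A window of 25 kb gave 2 regions common to all tissues in place of 1, through the region near Tsc22d3, and a kidney site at 4 of 7 genes where 24.7% of coding genes had one. The upper 50% of each list by score left 4 sites in liver and 2 in heart, and 2 regions in 1 tissue. A heart site then lay at 2 of the 7 genes, where 7.15% of coding genes had one. The top 1000 peaks left 2 sites at 2 genes in liver, 1 site at 1 gene in kidney, 2 sites at 2 genes in heart, and 0 regions in 1 tissue. Under that cut 5.34% of coding genes had a liver site, 5.81% a kidney site and 5.69% a heart site. Cutting each list to its top 2519 peaks, the length of the heart list, left 4 sites in liver and 5 regions in 1 tissue. A liver site then lay at 4 of the 7 genes, a kidney site at 3 and a heart site at 4. The shares of coding genes were 11.6, 13.1 and 11.5%. The 1 common region of Nr3c1 was counted under each alternative. No paired analysis was possible because each tissue has 1 pooled list and no value per replicate, and replicates could not be left out for the same reason. Read depth is unknown, so an absent peak may be a weak one.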
